A study of Mus musculus with 9 samples.

Results

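Interferon-induced genes were followed in the splenic B cells of 2 mouse models of chronic lymphocytic leukemia. They were taken by name as every gene whose symbol marks it as one of the Ifi genes with a number, the Ifit, Oas, Gbp, Mx, Isg and Irgm families, or as Ifih1, Rsad2, Iigp1, Igtp, Ddx58, Ddx60, Dhx58, Rtp4, Usp18, Bst2, Xaf1, Samhd1, Zbp1, Irf7 or Irf9. This gave 76 of the 22174 genes in the authors' gene table. Each of 9 mice gave 1 RNA-sequencing library, with 3 mice per group, so each value below is 1 mouse. Wildtype mice carried no transgene and were littermates of the Eµ-MTCP1 mice, Eµ-MTCP1 mice carried human MTCP1, and Eµ-TCL1 mice carried human TCL1A. In the Eµ-MTCP1 mice the transgene was placed behind a VH promoter and the IgH-Eµ enhancer, a combination that drives expression in B cells, and all 3 came from a single founder line, Z36. All mice were labelled C57/BL6NTac, the transgenic mice were age-matched and had reached a high disease burden, and B cells were enriched from whole spleen with a pan-B cell kit, so the comparison is between leukemic spleens and healthy ones rather than between purified clones. The question asked of the libraries was how far the leukemic B cells of both models differ from normal B cells and from each other.

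Type I interferons signal through the Ifnar1 and Ifnar2 receptor, the kinases Jak1 and Tyk2 and a complex with Stat2 and Irf9 that binds interferon-stimulated response elements in target promoters, while interferon gamma signals through Ifngr1 and Ifngr2 and acts on gamma-activated sites. The induced genes encode sensors of foreign RNA and DNA, proteins that degrade viral RNA or block its translation, GTPases that attack the compartments of intracellular pathogens, and regulators that start or end the response. In resting B cells a part of this set is transcribed without infection.

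The libraries held 6447542 to 8033303 reads assigned to genes, and levels are given as CPM, the counts of a gene scaled to a common library size, on which 3 reads correspond to 0.326 to 0.495 CPM. In the authors' normalized values, which are on a log2-like scale, the transgenes followed the labels: TCL1A stood at 14.9 to 15.6 in Eµ-TCL1 mice and at 6.04 to 6.96 elsewhere, and MTCP1 at 11.1 to 12.3 in Eµ-MTCP1 mice and 5.85 to 6.19 elsewhere. All 7 B cell markers examined were present in every library. Their summed level was 8553 to 9615 CPM in wildtype, 9390 to 10879 CPM in Eµ-MTCP1 and 7223 to 9510 CPM in Eµ-TCL1 mice. By the edgeR test used below, 1 of the 7 was lower in Eµ-TCL1 mice than in wildtype, where 4.13% of all tested genes were. Wildtype mouse Z2755 was sequenced on another lane than the other 8 libraries. Neutrophil markers summed to 1346 CPM in Z2755 and 1076 CPM in Eµ-MTCP1 mouse Z2641, against 11.2 to 165 CPM in the other mice, and their part in the results was not tested. In whole-population RNA, fewer cells of a type and less RNA per cell cannot be told apart.

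Of the 76 members, 61 passed the filter on low counts and were tested among 11165 genes. The other 15 included 10 with 3 reads or fewer in every library: Ifi202b, Oas1d, Oas1e, Oas1f, Oas1h, Ifi44l and Ifi27l2b, with no read at all, and Ifi44, Ifitm5 and Ifitm7. Among the 5 remaining, Gbp2b, Gbp11 and Ifit1bl2 reached at most 9 reads, Ifitm10 reached 30 and the GTPase gene Iigp1 reached 152 reads in the Eµ-TCL1 mouse B4376 and at most 5 in any other mouse.

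In Eµ-MTCP1 mice 9 members fell against wildtype and none rose (edgeR quasi-likelihood F test, Benjamini-Hochberg adjusted p under 0.05). The lower ones were the PYHIN genes Ifi203, Ifi206, Ifi209, Ifi213 and Ifi214, the helicase gene Ddx60, the 2′-5′-oligoadenylate synthetase-like gene Oasl1, the deubiquitinase gene Usp18 and the GTPase gene Gbp10. Gbp10 had no read in any Eµ-MTCP1 mouse and passed the filter on low counts only through the other groups. It is not counted as support here or among the DESeq2 calls below. Among all genes tested, 9.48% were called in this comparison, 5.49% as higher and 3.99% as lower. The median log2 fold change of the tested members was -1.10, against -0.02 for all genes tested, and 46 of 61 lay below zero. Of the 27 members with an unadjusted p under 0.05, which 24.97% of all tested genes had, 25 were lower, and 35 of 61 members had no overlap between the 3 Eµ-MTCP1 and the 3 wildtype values, where 29.9% of all tested genes had none. By the other tool run, DESeq2, which called 14.7% of all tested genes (8.36% higher and 6.39% lower), 18 members were lower and 1 higher. The edgeR count moved with single mice: it was 5 without wildtype mouse Z2755 or Z2754 or Eµ-MTCP1 mouse Z2551, 15 without Eµ-TCL1 mouse C1594 and 18 (17 lower, 1 higher) without Eµ-TCL1 mouse B4376. In those 5 fits 4.98%, 4.59%, 5.22%, 8.98% and 8.53% of all tested genes were called.

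In Eµ-TCL1 mice the same comparison gave 4 calls. Ifi206, Ifi209 and Ifi214 fell, and the immunity-related GTPase gene Igtp rose. The background in this comparison was 9.2% of genes called, 5.07% higher and 4.13% lower. An unadjusted edgeR p under 0.05 was found for 15 of 61 members, 9 of them higher, where 25.08% of all tested genes had one. The Eµ-TCL1 and wildtype values did not overlap for 14 of 61 members, where 32.6% of all tested genes had no overlap. By sign the members were evenly split, with 31 below and 30 above zero and a median log2 fold change of -0.03. That median moved with single mice: it was -0.70 without B4376, with 45 of 61 members below zero, 0.32 without C1594, with 44 above zero, 0.21 without B4437 and 0.27 without wildtype mouse Z2785. Without B4376, 5 members were called lower and 1 higher, where 7.15% of all tested genes were called. DESeq2 called 3 lower and 3 higher, where it called 15.2% of all tested genes (8.28% higher and 6.91% lower). Without any one of the wildtype mice Z2785, Z2755 and Z2754, 2 members were called, Ifi209 and Ifi214, where 6.62%, 4.83% and 4.52% of all tested genes were. Both models were set against the same 3 wildtype mice.

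**Figure D1:**
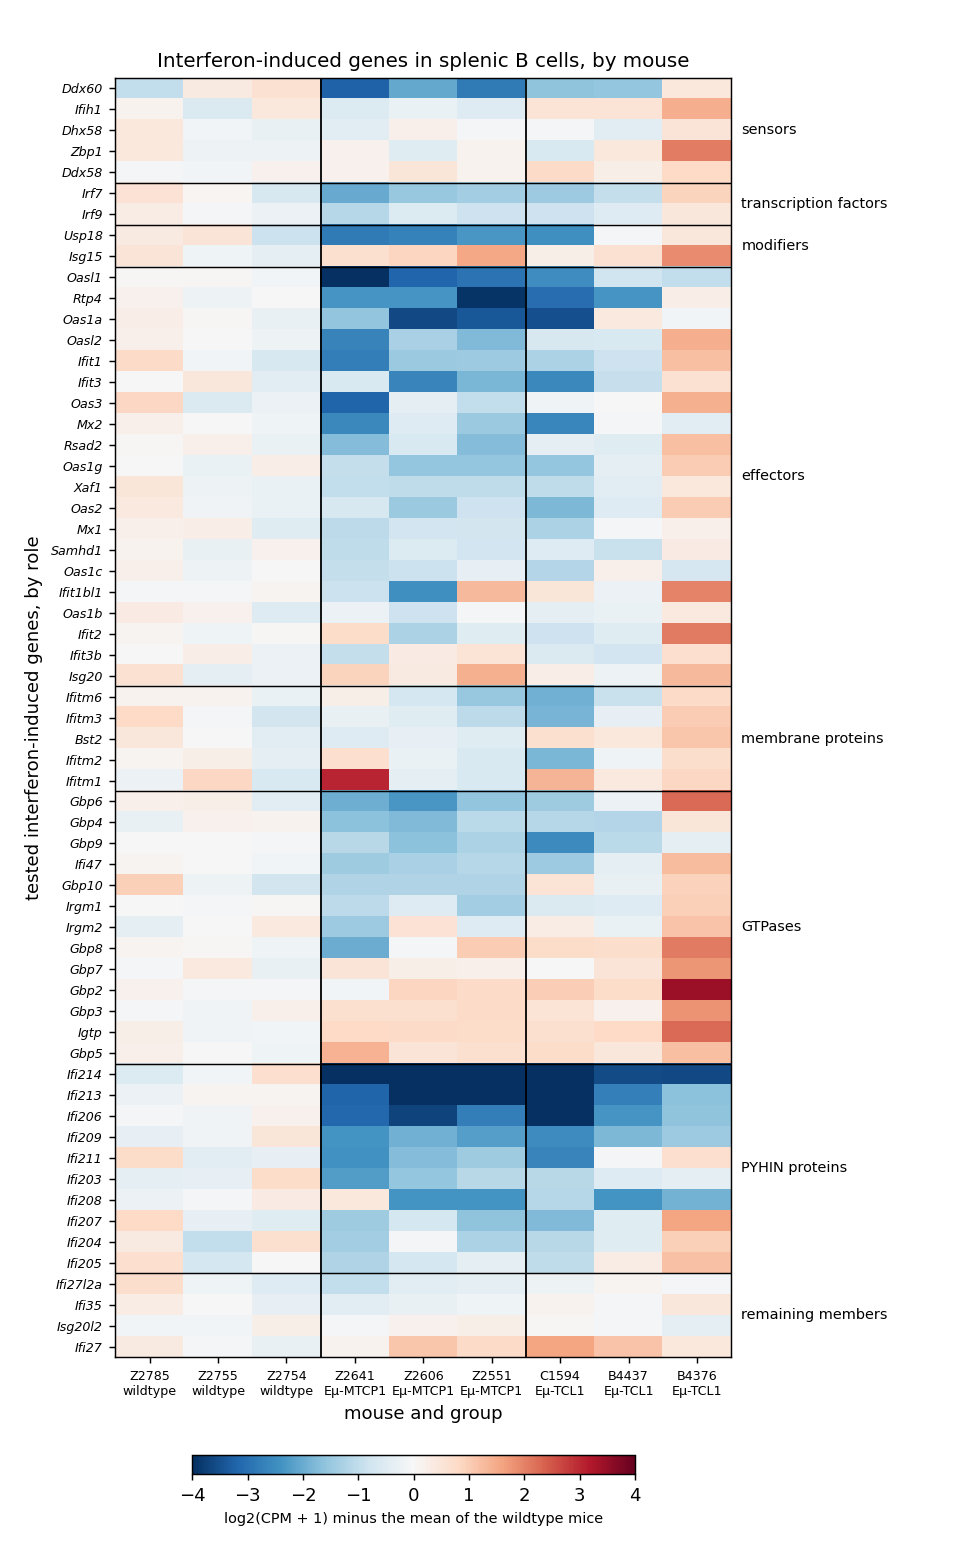
Heat map of the 61 tested members (rows, by role) in the 9 mice (columns, by group), coloured by log2(CPM + 1) minus the mean of the 3 wildtype mice, with colours ending at 4 in both directions. The 3 Eµ-MTCP1 columns and that of Eµ-TCL1 mouse C1594 are mostly blue, B4376 is mostly red outside the PYHIN rows, and Ifi214, Ifi213, Ifi206 and Ifi209 are blue in all 6 leukemic mice.

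The PYHIN genes encode proteins with a pyrin domain and a DNA-binding HIN domain, and several act as sensors or nuclear regulators. All 11 of those among the members lie in 1 cluster at chr1:173468485-174031810 (GRCm38), which spans 563 kb. The bases before most of their start sites share the letters of an interferon-stimulated response element. The letters searched were GAAA, any 2 bases and GAAA again, on both strands, in RefSeq promoters of the GRCm38.p6 build that run from 250 bases before to 50 bases after the start. Of the 10 PYHIN members with a promoter entry, 8 held this element, and 2, Ifi202b and Ifi209, did not. In 6 promoters, those of Ifi203, Ifi206, Ifi207, Ifi208, Ifi213 and Ifi214, it had identical letters, and in Ifi205 and Ifi211 it differed from those at 1 base. The windows of 5 PYHIN genes are shown because 3 of these genes were called lower and 2, Ifi208 and Ifi211, were not with all 9 mice in the fit, with the element in capitals and 25 bases on each side, read 5′ to 3′ on the strand of the gene.
Ifi206, chr1:173491324-173491383, minus strand, element 40 bases before the start: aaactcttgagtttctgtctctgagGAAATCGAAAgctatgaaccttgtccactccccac
Ifi213, chr1:173599311-173599370, minus strand, 73 bases before: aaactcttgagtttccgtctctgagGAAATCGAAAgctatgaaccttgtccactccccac
Ifi208, chr1:173673582-173673641, plus strand, 58 bases before: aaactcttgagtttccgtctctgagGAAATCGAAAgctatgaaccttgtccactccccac
Ifi214, chr1:173536002-173536061, minus strand, 79 bases before: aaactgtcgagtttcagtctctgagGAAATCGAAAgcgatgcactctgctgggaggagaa
Ifi211, chr1:173913049-173913108, minus strand, 37 bases before: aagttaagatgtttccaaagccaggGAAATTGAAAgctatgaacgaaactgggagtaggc
Over these 60 bases, Ifi213 and Ifi208 were identical and Ifi206 differed from both at 1 base, while Ifi214 shared 42 and Ifi211 shared 30 of 60 bases with Ifi213.

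Ifi214 showed the largest fitted change. Its level was 14.2, 19.6 and 34.2 CPM in the wildtype mice, 0, 0.142 and 0.328 CPM in the Eµ-MTCP1 mice and 0, 0.860 and 0.830 CPM in the Eµ-TCL1 mice. All 6 leukemic mice were far below every wildtype mouse. The log2 fold change was -7.03 ± 0.94 (SE) in Eµ-MTCP1 and -5.27 ± 0.80 in Eµ-TCL1 mice, with edgeR adjusted p of 0.00145 and 0.00268. Without Z2551 the Eµ-MTCP1 value was -7.94. The 3 Eµ-MTCP1 libraries held 3 reads in all against 551 in wildtype, a ratio of 147 with a 95% exact interval of 50.2 to 717 that covers counting error only. On this reference, set against 3 reads in each Eµ-MTCP1 library, its level there was at least 48.1-fold lower than in wildtype. Ifi214 passed the filter on low counts only through the wildtype mice. It was not tested between the models when only those 6 libraries were fitted.

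Ifi214 was also the PYHIN gene whose size depended most on the reference. These reads were assigned to a reference in which 87.3% of transcript lengths were multiples of 3, so that most were coding lengths, against 35.0% in the standard reference. On the authors' standard reference the 3 Eµ-MTCP1 libraries held 52, 24 and 23 reads of Ifi214 against 229, 381 and 592 in wildtype, and the log2 fold change was -3.26 with an adjusted p of 0.00744. In the deposited gene counts it was -4.10. The Eµ-TCL1 value of Ifi214 was -3.36 on the standard reference and -4.26 in the deposited gene counts (edgeR adjusted p of 0.00661 and 0.00188). PYHIN genes are near-identical in places, so reads can be split differently among them by each method.

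Ifi206 and Ifi209 were lower in both models. Ifi206 had 73.6, 68.3 and 85.7 CPM in wildtype, 7.60, 4.83 and 10.2 CPM in Eµ-MTCP1 and 2.80, 14 and 24.1 CPM in Eµ-TCL1 mice. The groups did not overlap with wildtype, and the 3 Eµ-TCL1 values spread over a wider range than those of the other groups. Its log2 fold change was -3.33 ± 0.60 and -2.48 ± 0.57 (edgeR adjusted p of 0.00688 and 0.0222). The Eµ-TCL1 call was lost when wildtype mouse Z2785, Z2755 or Z2754 or Eµ-TCL1 mouse B4437 was left out, with adjusted p of 0.0541, 0.0579, 0.0827 and 0.0648, and without B4376 the Eµ-TCL1 fold change was -3.16. Ifi209 had 90.0, 103 and 158 CPM in wildtype, 20.8, 29.1 and 24.0 CPM in Eµ-MTCP1 and 19.05, 32.0 and 41.4 CPM in Eµ-TCL1 mice. Its log2 fold change was -2.25 ± 0.32 and -1.93 ± 0.31 (edgeR adjusted p of 0.00188 and 0.00387), and both calls stayed in each of the 9 fits that left out 1 mouse. The Ifi209 promoter held none of the searched elements.

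Ifi213 and Ifi203 were called lower in Eµ-MTCP1 mice. Ifi213 had 31.6, 39.8 and 40.3 CPM in wildtype mice, 3.14, 0.142 and 1.31 CPM in Eµ-MTCP1 mice and 0.280, 4.67 and 11.1 CPM in Eµ-TCL1 mice. No leukemic mouse reached the wildtype range. The log2 fold change was -4.62 ± 1.02 in Eµ-MTCP1 mice (edgeR adjusted p = 0.0187) and -2.80 ± 0.90 in Eµ-TCL1 mice (0.0816), and the Eµ-MTCP1 call was lost without Z2755, Z2754 or Z2551 (0.0560, 0.0699 and 0.0750). Without Z2641 the Eµ-MTCP1 fold change was -5.73. In Eµ-TCL1 mice Ifi213 was at -3.88 without B4376 (edgeR adjusted p = 0.0502), and it was called lower without an expression filter. Ifi203 had 46.7, 48.5 and 102 CPM in wildtype, 12.4, 20.5 and 27.9 CPM in Eµ-MTCP1 and 28.1, 42.4 and 48.0 CPM in Eµ-TCL1 mice, so that the Eµ-TCL1 values touched the wildtype range. Its log2 fold change was -1.70 ± 0.39 in Eµ-MTCP1 mice (edgeR adjusted p = 0.0212) and -0.74 ± 0.37 in Eµ-TCL1 mice (0.256). The Ifi203 call was lost without Z2754, Z2641 or Z2606 (0.0837, 0.0588 and 0.0540).

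The 5 other tested PYHIN genes, Ifi204, Ifi205, Ifi207, Ifi208 and Ifi211, did not pass the test in any comparison of the fit reported here and were all low, with at most 12.2 CPM in wildtype mice. In Eµ-MTCP1 mice Ifi208 was called lower without Z2641 and Ifi211 without C1594. Ifi208, whose 60-base window was identical to that of Ifi213, had 3.47, 4.02 and 5.58 CPM in wildtype, 6.11, 0 and 0 CPM in Eµ-MTCP1 and 1.40, 0 and 0.415 CPM in Eµ-TCL1 mice. Its highest value of all was therefore in an Eµ-MTCP1 mouse, Z2641, where Ifi213 was at 3.14 CPM. One more PYHIN gene of the interval, Mndal, was not taken by the name rule. It holds Ifi211 and overlaps Ifi203 on the same strand, which leaves the division of their reads uncertain. Mndal had 144, 163 and 308 CPM in wildtype, 77.0, 53.3 and 69.2 CPM in Eµ-MTCP1 and 38.2, 84.2 and 87.6 CPM in Eµ-TCL1 mice, and it fell in both models (log2 fold change of -1.62 and -1.55, edgeR adjusted p of 0.0209 and 0.0249). The Eµ-MTCP1 call of Mndal was lost without Z2754, Z2606 or Z2551 and the Eµ-TCL1 call without Z2754 or C1594. The nearest tested gene within 500 kb outside the interval, the PYHIN gene Aim2, was not called in either model.

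**Figure D2:**
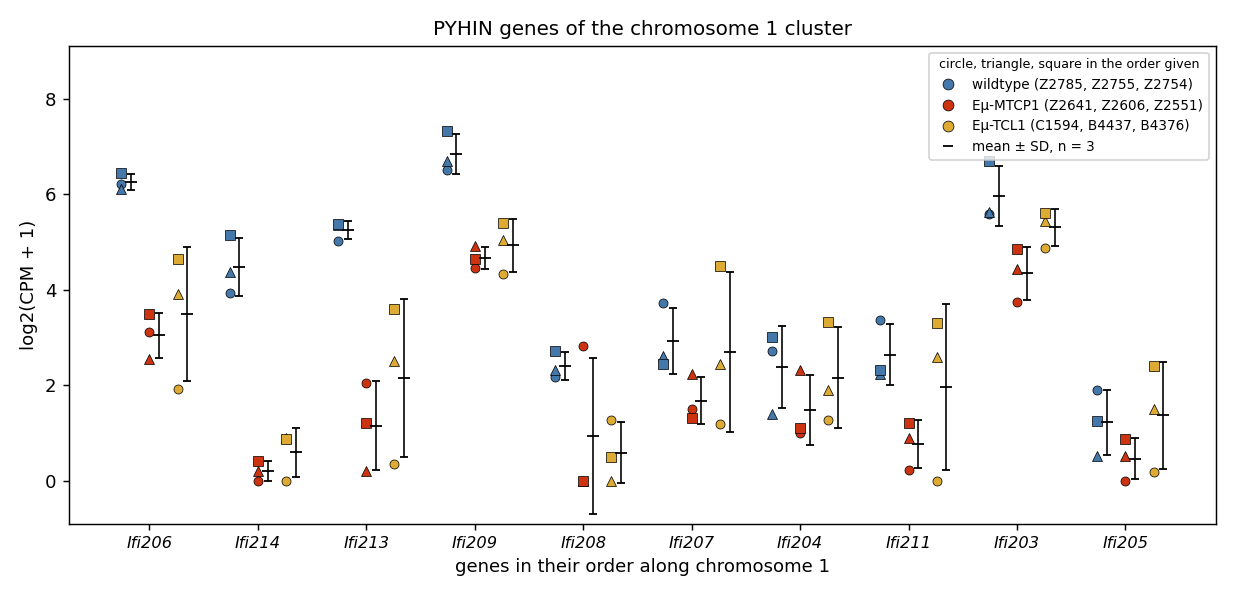
Levels of the 10 tested PYHIN genes as log2(CPM + 1), in their order along chromosome 1, with 1 point per mouse and the mean ± SD of the 3 mice of each group. Ifi206, Ifi214, Ifi213 and Ifi209 have every leukemic mouse below every wildtype mouse, while Ifi207, Ifi204, Ifi211 and Ifi205 have overlapping Eµ-TCL1 and wildtype points.

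Across all members the same response element was found more widely. It was present in 33 of 55 members that had a promoter entry (60%), against 3.99% of the 27025 genes with one, and the gamma-activated site TTCNNNGAA was present in 13 of 55 (23.6%), against 9.55% of genes. Matches to both patterns could share bases. Of the 10 members called in a comparison, 8 had an entry and 6 held the response element, with Ifi209 and Oasl1 as those without. The windows of Ddx60, which fell, and of Igtp, which rose, are shown as the called genes outside the PYHIN cluster that held it.
Ddx60, chr8:61928009-61928068, plus strand, 53 bases before the start: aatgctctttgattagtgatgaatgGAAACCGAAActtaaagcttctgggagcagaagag
Igtp, chr11:58199497-58199555, plus strand, 34 bases before, with the window ending at the start: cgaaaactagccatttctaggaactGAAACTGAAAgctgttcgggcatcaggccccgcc
Ddx60 held the element again, with the same letters, 19 bases before its start. A match is a description of the letters and not evidence of binding.

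Among the 5 sensors, Ddx60 alone was called. It encodes a helicase that assists the RNA sensors of the RIG-I family. Ddx60 had 3.78, 11.2 and 13.5 CPM in wildtype mice, 0, 1.28 and 0.328 CPM in Eµ-MTCP1 mice and 2.10, 2.21 and 11.8 CPM in Eµ-TCL1 mice. The Eµ-MTCP1 mice were all below the wildtype mice, and so were 2 of the Eµ-TCL1 mice, with B4376 alone inside the wildtype range. The log2 fold change in Eµ-MTCP1 mice was -4.06 ± 1.06 (edgeR adjusted p = 0.0389), and the call was lost without Z2755, Z2754, Z2641 or Z2551 (0.0979, 0.127, 0.0753 and 0.127). Without Z2606 the fold change was -5.76, and in the other fits that left out 1 mouse it ran from -4.44 to -3.55. In Eµ-TCL1 mice it was -0.83 ± 0.88 (0.607), and -2.13 without B4376. Between the models Ddx60 differed by 3.23 ± 1.05 (edgeR adjusted p = 0.629), higher in Eµ-TCL1 mice, and by 1.93 without B4376. The study named Ddx60 from that comparison of these same libraries, so its direction there is not independent evidence. Ddx58, which encodes RIG-I itself, along with Ifih1, Dhx58 and Zbp1, was not called by edgeR or DESeq2 on the transgene reference. On the standard reference and in the deposited gene counts Ddx58 was called higher in Eµ-TCL1 mice (log2 fold change of 0.68 and 0.67, edgeR adjusted p of 0.0433 and 0.0426), against 0.63 and 0.0878 here.

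Oasl1, which encodes an OAS-like protein that restrains the translation of Irf7, fell in Eµ-MTCP1 mice. It had 20.1, 20.3 and 18.2 CPM in wildtype, 0.165, 1.28 and 1.64 CPM in Eµ-MTCP1 and 2.66, 10.9 and 9.41 CPM in Eµ-TCL1 mice. The 3 groups did not overlap one another. The log2 fold change in Eµ-MTCP1 mice was -4.22 ± 0.68 (edgeR adjusted p = 0.00379), and the call stayed in all 9 fits that left out 1 mouse. In Eµ-TCL1 mice it was -1.35 ± 0.58 (adjusted p = 0.178). The other 19 tested effectors, among them the Oas and Ifit genes, Mx1, Mx2, Rsad2, Rtp4 and Xaf1, were not called in the edgeR fit reported here. DESeq2 called Ifit1, Oas1a, Oasl2, Rtp4 and Xaf1 lower in Eµ-MTCP1 mice, and so did edgeR for the last 4 when only the 6 libraries compared were fitted. By sign, 17 of the 20 lay below zero in Eµ-MTCP1 and 12 of 20 in Eµ-TCL1 mice.

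Usp18 encodes the protease that removes Isg15 from proteins and that also dampens signalling at the type I receptor. Its levels were 16.9, 18.9 and 6.69 CPM in wildtype mice, 0.991, 1.14 and 1.80 CPM in Eµ-MTCP1 mice and 1.54, 12.5 and 18.1 CPM in Eµ-TCL1 mice. Each Eµ-MTCP1 mouse was below each wildtype mouse, and in the Eµ-TCL1 group C1594 stood with the Eµ-MTCP1 mice. The log2 fold change in Eµ-MTCP1 mice was -3.42 ± 0.80 (edgeR adjusted p = 0.0248). That call was lost without Z2785, Z2755, Z2641, Z2606 or Z2551 (0.0606, 0.0780, 0.0698, 0.0654 and 0.0672), and it was not made in the deposited gene counts (-2.20, adjusted p = 0.0632) or with transcript-length offsets (-2.97, 0.100). Isg15, the ubiquitin-like modifier that Usp18 removes, had 11.48, 6.73 and 5.70 CPM in wildtype, 12.6, 14.8 and 24.3 CPM in Eµ-MTCP1 and 9.10, 12.2 and 30.8 CPM in Eµ-TCL1 mice. Its log2 fold change was 1.11 and 1.13 (edgeR adjusted p of 0.193 and 0.186), and the Eµ-TCL1 value was 0.42 without B4376. Isg15 did not pass the test, and its Eµ-MTCP1 values were all above those of wildtype.

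The transcription factor genes Irf7 and Irf9 were not called in the edgeR fit reported here. Irf7 was called lower in Eµ-MTCP1 mice by DESeq2 and, by edgeR, in the fit of only the 6 libraries compared and without C1594 or B4376 (adjusted p of 0.0139 without B4376). Irf7, which drives the later wave of type I interferon genes, had 75.5, 52.6 and 31.6 CPM in wildtype, 11.6, 17.05 and 18.4 CPM in Eµ-MTCP1 and 17.6, 25.2 and 94.1 CPM in Eµ-TCL1 mice. Irf9, the DNA-binding partner of Stat2, had 91.7, 71.4 and 62.4 CPM in wildtype, 33.4, 50.4 and 41.0 CPM in Eµ-MTCP1 and 41.0, 51.9 and 102 CPM in Eµ-TCL1 mice. For both genes the Eµ-MTCP1 mice were below the wildtype mice without overlap, with log2 fold changes of -1.76 ± 0.58 and -0.85 ± 0.33 (edgeR adjusted p of 0.0880 and 0.14), and B4376 was the highest of the 9 mice.

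Of the 13 tested GTPases, edgeR called 1 higher in Eµ-TCL1 and another lower in Eµ-MTCP1 mice, where 9.2% and 9.48% of all tested genes were called. DESeq2 called 2 higher in Eµ-TCL1 and 4 lower and 1 higher in Eµ-MTCP1 mice, where it called 15.2% and 14.7%. The lower edgeR call was that of Gbp10, which is also among the 4 lower by DESeq2. With no read in Eµ-MTCP1 mice, Gbp10 passed the filter only through the other groups and is not counted as support. Igtp, which encodes an immunity-related GTPase, had 43.4, 33.3 and 33.7 CPM in wildtype, 64.1, 62.4 and 60.9 CPM in Eµ-MTCP1 and 58.1, 64.1 and 179 CPM in Eµ-TCL1 mice. All 6 leukemic mice were above all wildtype mice. The log2 fold change was 1.45 ± 0.38 in Eµ-TCL1 mice (edgeR adjusted p = 0.0399) and 0.76 ± 0.38 in Eµ-MTCP1 mice (0.240). The Eµ-TCL1 call was lost without Z2785, Z2755, Z2754, B4376, Z2606 or Z2551 (0.0740, 0.142, 0.145, 0.0597, 0.0556 and 0.0604), and without B4376 the fold change was 0.73. Without B4376 in the fit the Eµ-MTCP1 value of 0.76 was called (0.0323). With transcript-length offsets the log2 fold change was 0.84 in Eµ-TCL1 (0.252) and 0.02 in Eµ-MTCP1 mice (0.979). The Eµ-TCL1 call was also lost with library size alone and when only the 6 libraries compared were fitted (edgeR adjusted p = 0.0694 in the latter). Igtp overlaps Irgm2 on the same strand of chromosome 11, which leaves the division of their reads uncertain.

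Gbp10, which encodes a guanylate-binding protein, was at the edge of detection. It had 3.47, 0.977 and 0.372 CPM in wildtype mice, no read in any Eµ-MTCP1 mouse and 2.38, 0.860 and 3.32 CPM in Eµ-TCL1 mice. Set against 3 reads in each Eµ-MTCP1 library, its level there was at least 3.41-fold lower than in wildtype. That limit rested on wildtype mouse Z2785, without which it was 1.43-fold. The edgeR adjusted p of 0.0483 was not kept in any of the 9 fits that left out 1 mouse (0.0557 to 0.110), while on the standard reference it was 0.0106. Gbp10 passed the filter on low counts only through the groups where it was higher, and it was not tested when only the 6 libraries compared were fitted. Gbp10 lies beside near-identical Gbp genes, and its reads are uncertain for that reason too.

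The 9 tested Gbp genes lie in 2 groups, and they were compared by chromosome after their values had been seen. The 4 on chromosome 3, Gbp5, Gbp7, Gbp3 and Gbp2, had log2 fold changes from 0.31 to 0.91 in Eµ-MTCP1 mice, but the highest of these, that of Gbp5, was -0.12 on the standard reference and -1.10 in the deposited gene counts (edgeR adjusted p of 0.906 and 0.295). The 5 on chromosome 5, Gbp8, Gbp9, Gbp4, Gbp10 and Gbp6, had a median of -1.53 and ran from -2.97 for Gbp6 to 0.12 for Gbp8, with Gbp10 known only by its limit of -1.77. Apart from Gbp10 none of these was called in the edgeR fit reported here. DESeq2 also called Gbp4, Gbp6 and Gbp9 lower in Eµ-MTCP1 mice and Gbp2 higher in Eµ-TCL1 mice, and edgeR made the same calls in the deposited gene counts. The DESeq2 call of Gbp5 as higher in Eµ-MTCP1 mice was made on the counts in which its direction was positive. Gbp9, for one, had 63.2, 63.4 and 59.8 CPM in wildtype and 28.4, 19.2 and 25.3 CPM in Eµ-MTCP1 mice, without overlap (edgeR adjusted p = 0.0842). Gbp5 had 41.4, 35.0 and 31.3 CPM in wildtype and 95.1, 51.3 and 56.3 CPM in Eµ-MTCP1 mice on the transgene reference (0.0724), and there 1 of its 3 transcripts held 141, 217 and 192 estimated reads in wildtype and 515, 297 and 306 in Eµ-MTCP1 mice. In the deposited gene counts Gbp5 instead had 137, 170 and 94 reads in wildtype and 55, 52 and 48 in Eµ-MTCP1 mice, so that no direction is drawn for this gene.

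**Figure D3:**
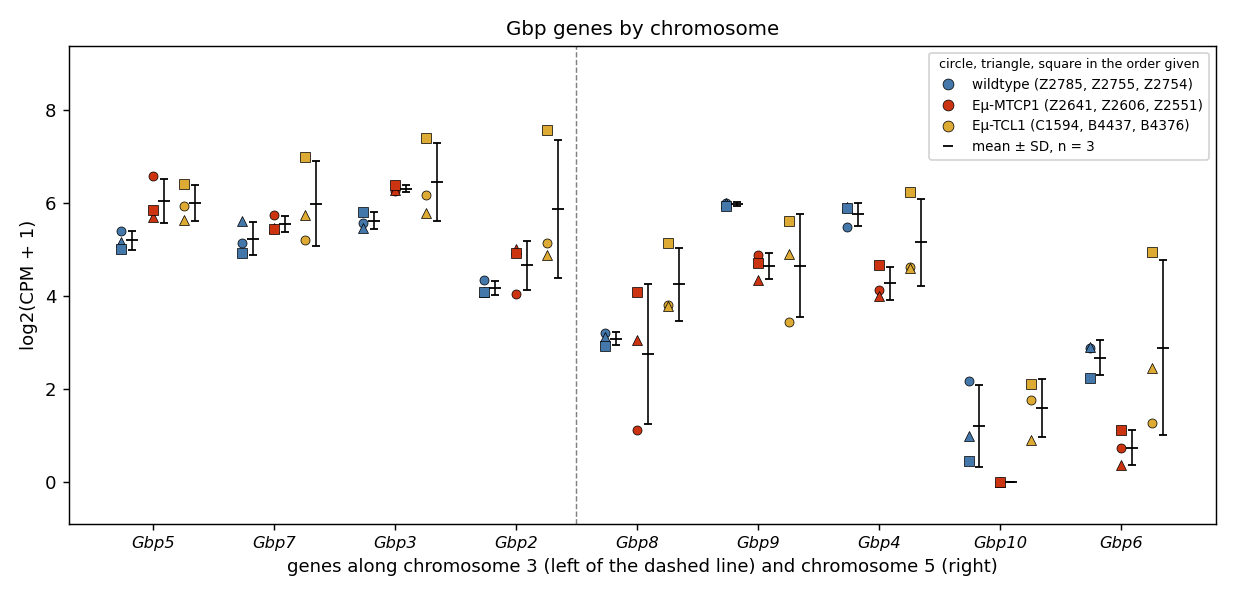
Levels of the 9 tested Gbp genes as log2(CPM + 1), with 1 point per mouse and the mean ± SD of the 3 mice of each group. The 4 genes of chromosome 3 have Eµ-MTCP1 log2 fold changes of 0.31 to 0.91 on this transgene reference (Gbp5 is at -1.10 in the deposited gene counts), Gbp9, Gbp4, Gbp10 and Gbp6 on chromosome 5 are low in the Eµ-MTCP1 mice, and B4376 (square) is the highest Eµ-TCL1 point of every gene.

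**Figure D4:**
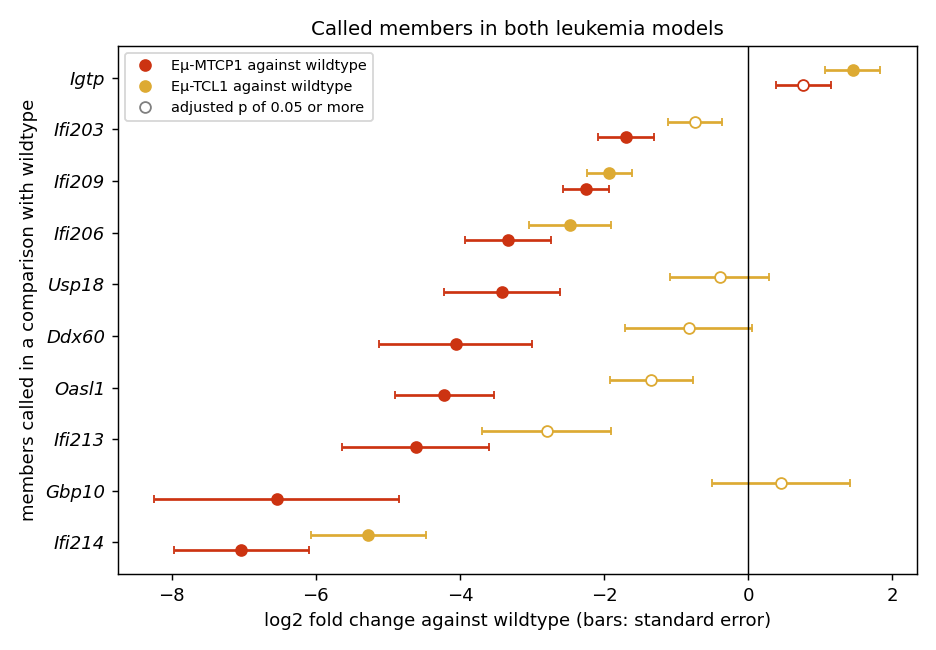
Log2 fold change against wildtype of the 10 members called in either model, with standard errors and with filled points for an adjusted p under 0.05. In Eµ-MTCP1 mice 9 of them are below zero and called, while in Eµ-TCL1 mice Ifi206, Ifi209, Ifi214 and Igtp are called and Usp18, Ddx60 and Gbp10 lie between -0.83 and 0.46. The Eµ-MTCP1 point of Gbp10 is a fitted value without any read, for which only a limit of -1.77 is known. That of Ifi214 rests on 3 Eµ-MTCP1 reads in all.

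None of the most abundant members was called in the edgeR fit reported here. DESeq2 called Ifi27 higher in Eµ-TCL1 mice than in wildtype and Bst2 higher than in Eµ-MTCP1 mice, and edgeR made this call of Ifi27 without an expression filter and without B4376 or Z2641. Irgm1 was called lower in Eµ-MTCP1 mice by edgeR when only the 6 libraries compared were fitted and without B4376 (adjusted p of 0.0463 and 0.0375). By mean TPM, which divides by transcript length, the 10 highest were Ifi27l2a, Ifitm3, Ifi27, Ifitm2, Samhd1, Ifi35, Bst2, Isg20, Zbp1 and Irgm1. Ifi27l2a, a small membrane protein gene, stood at 876 ± 297 TPM (SD, n = 3) in wildtype, 444 ± 91.8 in Eµ-MTCP1 and 701 ± 94.7 in Eµ-TCL1 mice. Ifitm3, which encodes a membrane protein that blocks virus entry, stood at 263 ± 106, 131 ± 35.1 and 215 ± 186 TPM. Samhd1, which encodes a nucleotide-degrading restriction factor, stood at 136 ± 10.4, 63.6 ± 10.6 and 95.3 ± 43.3 TPM. In each of these the Eµ-MTCP1 mean was the lowest of the 3 groups. The remaining 7 ranged from 44.3 to 161 TPM in wildtype, 18.6 to 137 TPM in Eµ-MTCP1 and 40.9 to 203 TPM in Eµ-TCL1 mice. Ifi27 and Isg20 went the other way, with the wildtype mean lowest: Ifi27 stood at 115 ± 13.7, 137 ± 42.5 and 203 ± 73.5 TPM.

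No member was called between Eµ-TCL1 and Eµ-MTCP1 mice by edgeR, where 0.0448% of all tested genes were. At an unadjusted p under 0.05 there were 21 members, all higher in Eµ-TCL1, where 6.42% of all tested genes were below that value. DESeq2 called 0.654% of all tested genes (0.358% higher and 0.296% lower) and 6 members, namely Bst2, Gbp10, Gbp6, Oasl1, Oasl2 and Usp18, all higher in Eµ-TCL1 mice. Among these Gbp10, with no read in Eµ-MTCP1 mice, passed the filter only through the other groups and is not counted as support. The log2 difference was above zero for 54 of 61 members, with a median of 1.07 against -0.00 for all genes tested. Without mouse B4376 that median was 0.32, with 43 of 61 above zero. The smallest adjusted p was that of Bst2, which encodes tetherin, a protein that holds budding virions at the cell surface. Bst2 had 49.3, 35.2 and 26.4 CPM in wildtype, 24.8, 28.1 and 25.1 CPM in Eµ-MTCP1 and 56.0, 47.9 and 78.3 CPM in Eµ-TCL1 mice, and the models did not overlap (log2 difference 1.22, 95% interval 0.63 to 1.81, edgeR adjusted p = 0.305). For Ifi209, low in both models, the difference was 0.32 with a 95% interval of -0.36 to 1.01. For Oasl1 it was 2.87 with an interval of 1.39 to 4.35 (adjusted p = 0.346), and for Usp18 3.02 with an interval of 1.25 to 4.79 (0.478). The Usp18 difference was 1.84 in the deposited gene counts and 2.42 without B4376. By DESeq2 the adjusted p of the difference was 0.00439 for Oasl1 and 0.0174 for Usp18, so that the call of a difference between the models depended on the tool.

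The Eµ-TCL1 mice differed more among themselves than the other groups did. The median SD of log2(CPM + 1) within a group was 0.917 for the members in Eµ-TCL1 mice, 0.455 in Eµ-MTCP1 and 0.331 in wildtype mice, while for all tested genes it was 0.290, 0.351 and 0.297. Mouse B4376 had the highest level of all 9 mice for 38 of the 61 members (62.3%), where it had the highest level for 9.68% of all tested genes. The median member stood 0.79 above the wildtype mean on the log2(CPM + 1) scale in B4376, 0.31 below it in B4437 (-0.31) and 1.02 below it in C1594 (-1.02). The 3 Eµ-MTCP1 mice were at -1.01, -0.70 and -0.99. C1594 thus stood with the Eµ-MTCP1 mice, and B4376 above the wildtype mice, which lay between -0.19 and 0.18.

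The level in B4376 was more than 2 times the highest of the other 8 mice for 11 members. These were 7 of the 13 tested GTPases, 3 of the 20 effectors, 1 of the 5 sensors and none of the 10 PYHIN genes or the 13 members of other roles. Of all tested genes 0.663% stood out in this way. The steepest was Gbp2, chosen after its values were seen, with 189 CPM in B4376 and at most 34.4 CPM in any other mouse. Zbp1, which encodes a sensor of Z-form nucleic acid, had 181 CPM in B4376 and at most 57.3 CPM elsewhere. Tgtp2, an interferon-induced GTPase gene outside the name rule, had 127 CPM there and at most 32.5 CPM elsewhere. Of the PYHIN genes lower in both models, B4376 had 0.830 CPM of Ifi214 and 24.1 CPM of Ifi206.

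Markers of other cell types moved with this mouse or with the models. In B4376 most of the macrophage sum came from Lyz2 and Ctss, at 1023 and 999 CPM. The summed level of 10 macrophage and monocyte markers was 2445 CPM in B4376, 1234 and 1393 CPM in the other Eµ-TCL1 mice, 1117 CPM or more in Eµ-MTCP1 mice and 1616 to 1980 CPM in wildtype mice, which were above all Eµ-MTCP1 mice. The summed level of 7 T cell markers was 64.6 CPM in B4376, 8.82 and 18.8 CPM in the other Eµ-TCL1 mice, 3.69 to 23.1 CPM in Eµ-MTCP1 and 3.91 to 12.1 CPM in wildtype mice. Natural killer cell markers, 3 in all, summed to 11.9 CPM in B4376 and 0 to 11.6 CPM elsewhere. C1q genes, which mark tissue macrophages, were at 0.692 to 4.15 CPM in B4376 and at up to 44.9 CPM in wildtype mice. Cd68 went with the models instead, with a mean of 53.5 CPM in wildtype, 224 CPM in the Eµ-MTCP1 group and 200.4 CPM in the Eµ-TCL1 group (2.06 and 1.91 on the log2 scale, edgeR adjusted p of 0.00316 and 0.00462). Conventional dendritic cell markers, 4 in all, summed to 13.3 to 29.9 CPM in wildtype, 3.63 to 10.5 CPM in Eµ-MTCP1 and 1.40 to 5.26 CPM in Eµ-TCL1 mice. All leukemic mice were thus below all wildtype mice in this sum. Of all tested genes, 29.9% had no overlap between Eµ-MTCP1 and wildtype mice and 32.6% had none between Eµ-TCL1 and wildtype mice. In wildtype mice nearly all of the conventional dendritic cell sum was Flt3, at 12.9 to 28.8 CPM, the only marker of the set that was tested. Flt3 was called lower in Eµ-TCL1 mice (-3.06, edgeR adjusted p = 0.0168), a call lost without Z2755. Plasmacytoid dendritic cell markers, 4 in all, summed to 130 to 195 CPM in wildtype, 392 to 394 CPM in Eµ-MTCP1 and 257 to 406 CPM in Eµ-TCL1 mice. Most of this was Tcf4, which was called higher in both models (1.32 and 1.05, edgeR adjusted p of 0.00391 and 0.01204, the latter call lost without Z2755 or Z2754), while Siglech was at 5.29 CPM or less in every mouse. The part of these cells in the members' levels was not tested.

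**Figure D5:**
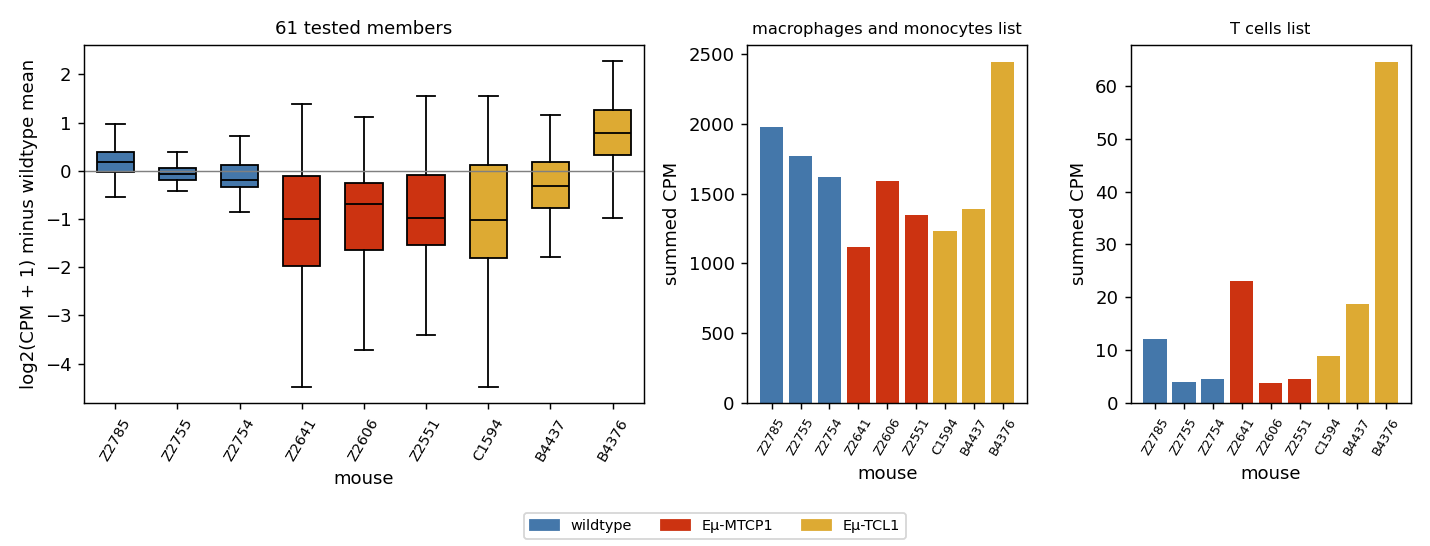
Left, box plots (median, quartiles and whiskers to 1.5 interquartile ranges) of log2(CPM + 1) minus the wildtype mean for the 61 tested members in each mouse; middle and right, bars of the summed CPM of the macrophage and monocyte markers and of the T cell markers in the same mice. The B4376 box has its median at 0.79 and its bars, at 2445 and 64.6 CPM, are the tallest of their panels.

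The upstream part of the pathway was read from a list of 44 genes, of which 43 were matched and 31 tested. All 11 interferon ligands on the list were below the filter, and Ifng, the most abundant of them, was at 0.908 CPM or less. In Eµ-MTCP1 mice 3 of the 31 fell and none rose, and in Eµ-TCL1 mice 5 fell and 1 rose. Of all tested genes 3.99% were lower in the former comparison, and 4.13% were lower and 5.07% higher in the latter. Among the receptors, both chains of the interferon gamma receptor were lower. Ifngr1 had 81.0, 88.7 and 95.4 CPM in wildtype, 40.0, 42.6 and 33.6 CPM in Eµ-MTCP1 and 34.2, 43.7 and 51.7 CPM in Eµ-TCL1 mice (-1.19 and -1.03 on the log2 scale, edgeR adjusted p of 0.00472 and 0.00926). Ifngr2 had 78.6, 79.2 and 94.4 CPM in wildtype, 28.1, 29.1 and 49.9 CPM in Eµ-MTCP1 and 34.9, 40.2 and 49.9 CPM in Eµ-TCL1 mice (-1.24 and -1.01, adjusted p of 0.0131 and 0.0312). For both, each leukemic mouse was below each wildtype mouse. Both Ifngr1 calls stayed in all 9 fits that left out 1 mouse, while that of Ifngr2 was lost without Z2754 in Eµ-MTCP1 mice and without Z2785, Z2755, Z2754, C1594 or B4437 in Eµ-TCL1 mice.

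The type I receptor chains did not pass the test, although their estimates were also below zero. Ifnar1 had a log2 fold change of -0.74 in Eµ-MTCP1 and -0.71 in Eµ-TCL1 mice, and Ifnar2 had -0.83 in both (edgeR adjusted p of 0.109 to 0.186). Il10rb, the chain shared with the interleukin-10 receptor, was at -0.90 and -0.74 (0.0655 and 0.117), and Ifnlr1 was not tested. Stat2, the partner of Irf9, had 94.4, 103 and 74.5 CPM in wildtype, 24.6, 38.9 and 24.1 CPM in Eµ-MTCP1 and 29.8, 34.9 and 58.8 CPM in Eµ-TCL1 mice, and it fell in both models (-1.63 and -1.14, adjusted p of 0.00744 and 0.0360). In Eµ-TCL1 mice the kinase gene Jak1 (-0.87) and Tmem173 (-1.03), which encodes the DNA-sensing adaptor STING, also fell, and the adaptor gene Ticam1 rose (0.98), with adjusted p of 0.0171, 0.0348 and 0.0483. The Eµ-MTCP1 call of Stat2 stayed in all 9 fits that left out 1 mouse. In Eµ-TCL1 mice those of Stat2 and Tmem173 were lost without Z2785, Z2755, Z2754, C1594 or B4437, that of Jak1 without Z2755, Z2754, C1594 or B4376, and that of Ticam1 in 7 of the 9 fits, all except those without Z2641 or Z2551. With transcript-length offsets the calls of Tmem173 and Ticam1 were lost too, and with library size alone that of Ticam1.

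A second list of 47 interferon-induced genes outside the name rule, 43 of them tested, gave 6 lower and none higher in Eµ-MTCP1 and 4 lower and 1 higher in Eµ-TCL1 mice, where 3.99% and 4.13% of all genes were lower and 5.49% and 5.07% higher. Stat2 and Mndal were among those lower in both models. Shisa5 and Slfn8 fell in both models, with log2 fold changes of -1.68 and -1.23 for Shisa5 and -1.65 and -1.68 for Slfn8 (edgeR adjusted p of 0.000603, 0.00285, 0.0280 and 0.0253). The large GTPase gene Gvin1 (-1.36) and Trim30a (-0.80) fell in Eµ-MTCP1 mice (0.0218 and 0.0356). Cd274, which encodes the checkpoint ligand PD-L1, rose in Eµ-TCL1 mice, with 21.9, 31.7 and 20.1 CPM in wildtype against 51.4, 58.6 and 64.7 CPM (log2 fold change 1.24, adjusted p = 0.00606), and had 29.1, 34.9 and 30.8 CPM in Eµ-MTCP1 mice (0.329). The calls of Shisa5 and Cd274 stayed in all 9 fits that left out 1 mouse. Those of Slfn8 were lost without any 1 wildtype mouse, without Z2606 or Z2551 in Eµ-MTCP1 and without C1594 or B4437 in Eµ-TCL1 mice, that of Gvin1 without Z2754, Z2641, Z2606 or Z2551, and that of Trim30a without Z2785, Z2754, C1594, Z2641, Z2606 or Z2551. Trim30a was also not called when only the 6 libraries compared were fitted. The median log2 fold change of this list was -0.43 in Eµ-MTCP1 and 0.06 in Eµ-TCL1 mice, against -0.02 and -0.01 for all genes tested.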

How the data were processed

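RNA of splenic B cells from 9 mice was sequenced, and the authors estimated transcript levels with Salmon 1.0.0, once on a mouse reference holding the human transgenes and once on a standard one. Per the submitters' processing notes CASAVA 1.8.2, HISAT2 2.0.6, Subread, featureCounts and DESeq2 were also used. The deposited Salmon files hold estimated counts (expected counts), TPM and effective lengths per transcript. The authors also deposited a gene count table and a table of normalized values on a log2-like scale, of which only the transgene values were used. The paper names GENCODE release 23, whereas transcripts were joined to genes here through GENCODE M21 (GRCm38), by identifier without version. This left at most 0.291% of reads unjoined.

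Estimated counts on the transgene reference were summed per gene and rounded. In edgeR 4.0.16 under R 4.3.3, all 9 libraries entered 1 quasi-likelihood fit and each comparison was an F test, with TMM scaling (factors 0.911 to 1.18), filterByExpr and Benjamini-Hochberg adjustment over all genes tested within a comparison, two-sided at 0.05. CPM used TMM-scaled library sizes. Standard errors are the log2 fold change divided by the square root of F. The fit was also run on simulated counts with known changes, whose outcome is not given here. The p-values measure the spread between these mice. Without molecular identifiers in the reads, intervals on counts and the limit of 3 reads cover counting error only.

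Members and lists were chosen with earlier results of these data known. Named were all called members (every library's value for the 12 largest per comparison), the 10 highest by mean TPM, those with 3 reads or fewer everywhere, and, of both lists, called genes and receptors. A gene of these lists is not reported here. Ifi208, Isg15, Irf7, Irf9, Gbp2, Gbp5, Gbp9, Iigp1, Tgtp2, Ifng and other members named outside this rule were chosen after their values were seen. The 17 alternatives were DESeq2 size factors, library size alone, no expression filter, the Wald test of DESeq2 1.42.0, the standard reference, the gene count table, transcript-length offsets, the 6 libraries compared alone, and each of the 9 libraries left out.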

Additional observations from a re-analysis of the deposited data

How the results depend on the processing

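In Eµ-MTCP1 mice against wildtype, 9 members were called, among them Gbp10, which passed the filter only through the other groups. The DESeq2 Wald test and the fit of only the 6 libraries compared each called 19 (18 lower and 1 higher). Of all tested genes 9.48% were called in the reported fit, 14.7% by DESeq2 and 9.13% with the 6 libraries. The count of members ran from 5 to 18 when 1 mouse was left out, with 4.59% to 8.98% of all genes called. In Eµ-TCL1 mice 4 were called (9.2% of all genes), 7 without an expression filter (7.38%), and 2 to 6 when 1 mouse was left out (4.52% to 10.8%). Between the models the count was 0, also in every fit that left out 1 mouse, and 6 by the DESeq2 Wald test. The other alternatives gave 8 to 12, 3 to 6 and 0. The cause of these shifts was not tested. With no scaling other than the library size, all tested genes had a median log2 fold change of -0.26 and -0.15 in the comparisons with wildtype, and 12 and 3 members were called. Across the 17 alternatives, every fold change called in the reported fit kept its sign wherever a test was made. Among the sign changes listed next, only Gbp5 in Eµ-MTCP1 mice was called in any fit. DESeq2 called it higher, and its negative values were not called. On the standard reference and in the gene counts, Gbp5 in Eµ-MTCP1 mice was -0.12 and -1.10, Ifi214 between the models -0.10 and -0.17, and Ifitm3 in Eµ-TCL1 mice 0.0584 and 0.0583. Ifitm2 was -0.0227 in Eµ-MTCP1 mice on the standard reference, and 0.0556 in Eµ-TCL1 mice and 0.0553 between the models in the gene counts. With library size alone Ifitm2 and Gbp8 in Eµ-MTCP1 mice were -0.22 and -0.10 and Irgm1 in Eµ-TCL1 mice -0.0034, and with length offsets Zbp1 in Eµ-MTCP1 mice was 0.12. When 1 mouse was left out, values in Eµ-MTCP1 mice ran from -0.47 to 0.27 for Ifitm2, -0.20 to 0.18 for Zbp1 and -0.81 to 0.60 for Gbp8. In Eµ-TCL1 mice they ran from -0.0271 to 1.66 for Gbp10, -0.39 to 0.28 for Ifi27l2a, -0.80 to 0.32 for Ifitm2, -1.05 to 0.41 for Ifitm3, -0.56 to 0.39 for Irgm1, -0.0161 to 0.92 for Isg20, -1.001 to 0.11 for Usp18 and -0.0309 to 1.45 for Zbp1. Between the models they ran from -0.83 to 0.32 for Ifitm2, -0.33 to 1.08 for Ifitm3 and -0.0305 to 0.96 for Igtp. The alternatives for genes outside the rule for named genes, among them Gbp5, were run after their values had been seen. No paired analysis was possible because the groups are different mice and the labels number no replicates. With 3 mice per group, members near 3 reads per library, such as Gbp10, cannot be measured well, and reads of near-identical PYHIN, Gbp, Ifit and Oas1 copies may be divided differently by each reference.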
